A study of Homo sapiens with 18 samples.

Results

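The genes described here were the 10 genes of human leukocyte antigen (HLA) class II antigen presentation that were taken by name from the tables: the class II transactivator CIITA, the chains HLA-DRA, HLA-DRB1, HLA-DPA1, HLA-DPB1 and HLA-DQB1, the invariant chain CD74, and the peptide-loading genes HLA-DMA, HLA-DMB and HLA-DOA. They were chosen because they are classical targets of the RFX complex or, in the case of CIITA, because its product acts on those targets. They made up 10 of the 26702 genes listed in any of the 6 tables. The RNA came from U2OS, a human osteosarcoma cell line with wild-type p53, and was sequenced after selection of polyadenylated RNA.

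There were 18 samples in 6 groups of 3. Cells received siControl, siANKRA2 or siRFXANK, and each siRNA was combined with 10 µM Nutlin-3a or with its solvent DMSO for 24 h. Nutlin-3a blocks the binding of MDM2 to p53 and thereby stabilizes p53. ANKRA2 and RFXANK are related ankyrin repeat proteins that bind RFX transcription factors. The siRFXANK samples were labelled in a different way from the rest and had no siControl samples labelled in that way, so an effect of siRFXANK cannot be told apart from a difference between the 2 sets of samples. All groups were of 1 cell line, and no label said whether the 3 samples of a group came from separate cultures.

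HLA class II molecules are pairs of an alpha and a beta chain (DR, DP and DQ) that present peptides from endocytosed proteins to CD4+ T cells. CD74 fills the groove of the new pair, lysosomal proteases degrade it, HLA-DM exchanges its remnant for peptides, and HLA-DO modulates HLA-DM. The promoters of these genes carry the W/S, X and Y boxes. The RFX complex (RFX5, RFXAP and RFXANK) and CREB bind the X boxes and NF-Y binds the Y box, an inverted CCAAT sequence. CIITA does not bind DNA itself but is recruited to these factors, and it decides in most cells whether class II genes are transcribed. Professional antigen-presenting cells make CIITA constitutively, while many other cell types make it after interferon gamma signalling through JAK1, JAK2 and IRF1.

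Matches to parts of the X and Y boxes are shown first. RFXANK, a target of the siRNAs, is a subunit of the complex that binds the X box. Promoter windows of 300 bases, from 250 before to 50 after the annotated gene start, were taken from RefSeq on GRCh38.p14 for 8 of the 10 members, HLA-DPA1 with 2 windows. HLA-DRA and CIITA were not among them. Both strands were searched for GCAAC, taken here as a short part of the X box, and for CCAAT, the core of the Y box. GCAAC was in 33.6% of all 35116 windows and in those of 4 members, HLA-DRB1, HLA-DPA1, HLA-DMA and HLA-DOA. CCAAT was in 34.6% of all windows and in those of 7 members, HLA-DPA1 being the member without it. Both, at any distance and on either strand, were in 12.4% of all windows and in the windows of 3 members, HLA-DRB1, HLA-DMA and HLA-DOA. A longer form of the Y box, TGATTGG, which holds CCAAT on the opposite strand, was chosen after the windows had been seen, and it was in 6.95% of all windows and in those of 4 members. GCAAC together with TGATTGG was in 2.42% of all windows and again in those of HLA-DRB1, HLA-DMA and HLA-DOA. These matches describe letters in a window and do not show binding. GCAAC is a short part of the X box, so a window without it may still hold an X box.

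The stretch of 60 bases around TGATTGG is printed for these 4 members, 5′ to 3′ on the minus strand, with the matches to GCAAC and TGATTGG in capitals. It lies at chr6:32589882-32589941 for HLA-DRB1, at chr6:33009646-33009705 for HLA-DOA, at chr6:32666733-32666792 for HLA-DQB1 and at chr6:32953164-32953223 for HLA-DMA.
HLA-DRB1: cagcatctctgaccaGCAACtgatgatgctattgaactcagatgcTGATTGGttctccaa
HLA-DOA: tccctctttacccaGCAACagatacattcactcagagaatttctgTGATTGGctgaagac
HLA-DQB1: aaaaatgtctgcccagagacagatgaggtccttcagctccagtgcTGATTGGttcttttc
HLA-DMA: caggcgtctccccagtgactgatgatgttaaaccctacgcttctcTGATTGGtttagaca
In HLA-DRB1 GCAAC began 78 bases before the gene start and TGATTGG 48 bases before it, a distance of 30 bases. In HLA-DOA they began 100 and 69 bases before the start, a distance of 31 bases. HLA-DQB1 held TGATTGG 90 bases before its start and no GCAAC in its window. In HLA-DMA the GCAAC of the window lay 215 bases before the start, outside the printed stretch, and TGATTGG lay 81 bases before it.

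The level given for each gene is the authors' mean normalized count, 1 value per gene over the samples of their fit, which carries no error. Which samples entered that mean is not given in the sources used here, and no level per sample or group was used. It was the same in every table that listed the gene. The comparisons cover siControl, siANKRA2 and siRFXANK cells with and without Nutlin-3a, so the mean mixes conditions. With 1 value per gene, no test of the order of the levels and no test of a response to Nutlin-3a, siANKRA2 or siRFXANK was made. The comparison of bulk samples could in any case not tell fewer cells with a transcript apart from less transcript per cell.

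Class II transcripts were scarce in these cells. The means of the 10 members summed to 323 normalized counts, 0.00122% of the sum over all genes, and HLA-DQB1 alone held 74.8% of that. A mean below 10 was found for 7 of the 10 members, against 30.9% of all listed genes and 14.4% of the protein-coding ones. The median mean of all genes was 87.3, and 9 of the 10 members lay below it. The lower quartile of all genes was 5.69, and HLA-DMB, HLA-DOA, CD74, HLA-DPB1 and HLA-DRA lay below that. Here and below, all genes are the listed ones, none of which had a mean below 0.714. Genes with a lower mean are thus left out of these quartiles, shares and percentiles.

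**Figure D1:**
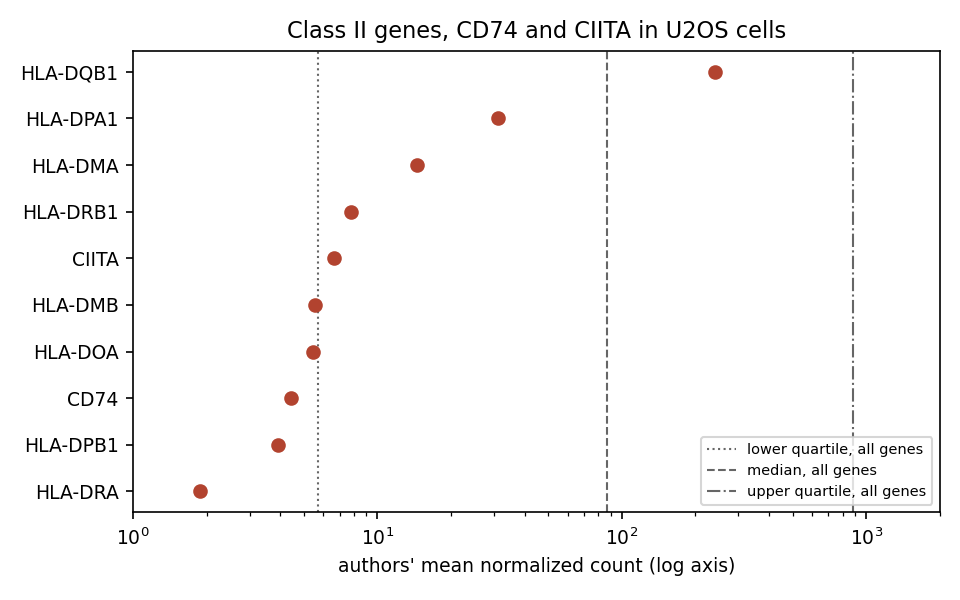
Authors' mean normalized count (log axis) of the 10 members, 1 point per gene, with the lower quartile (5.69), the median (87.3) and the upper quartile (886) of all listed genes as vertical lines. HLA-DQB1 is the member to the right of the median, at 241, and HLA-DRA is the lowest, at 1.87.

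CIITA (ENSG00000179583, GRCh38 chr16:10866222-10943021, plus strand) had a mean of 6.61 normalized counts and was listed in all 6 tables. Its annotated exons cover 20757 bases, the most of any member. Per kilobase of exon, the scale on which genes of unequal length can be compared, its level was 0.319, the lowest of the 10 members and at percentile 2.26 of all genes. This position depends on the length used. Its longest transcript, of 16059 bases, gave 0.412, while the median length of its annotated transcripts gave 5.09 and the seventh place among the members. Of its exon bases, 11.6% are shared with DEXI on the opposite strand, a gene with a mean of 1242. A further 11.5% are shared with AC133065.3 on the same strand, which was not analysed here. Whether the reads were counted by strand is not given in the sources used here. Reads over the shared bases may be mixed in the mean of CIITA or left out of it, which was not tested.

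Among the classical chains, HLA-DQB1 (ENSG00000179344, chr6:32659467-32668383, minus strand), the beta chain of HLA-DQ, stood above the rest with a mean of 241 normalized counts. Per kilobase it reached 49.2, above the median of all genes of 34.7 and at percentile 54.1, and 7.75-fold above HLA-DRB1, the next member on this length. It was first under each of the 3 gene lengths, with 51.9 per kilobase of the longest transcript and 161 per kilobase of the median transcript. The next member was then HLA-DMA at 8.39 or HLA-DPA1 at 33.9. Its partner chain gene HLA-DQA1 was not analysed here. The near copy HLA-DQB2 had a mean of 28.96 normalized counts, and HLA-DQB1 was 3.44-fold above it per kilobase. Of the 31-base stretches of the longest HLA-DQB1 transcript, 2.34% also occur in transcripts of other genes, and 0.914% of the 51-base stretches do. HLA-DQB1-AS1 on the opposite strand, not analysed here, shares 4.91% of its exon bases. The class II chains are highly polymorphic, and how far the alleles of U2OS differ from the reference was not tested.

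HLA-DR, the most abundant class II molecule of professional antigen-presenting cells, was barely represented. HLA-DRA (ENSG00000204287, chr6:32439842-32445046, plus strand), its alpha chain, had the lowest mean of the members, 1.87 normalized counts. It was listed in 5 tables. The table of Nutlin-3a against DMSO in siANKRA2 cells, which has no gene with a mean below 2.34, does not list it. HLA-DRB1 (ENSG00000196126, chr6:32578769-32589848, minus strand), the beta chain, had a mean of 7.80 and thus 6.35 per kilobase against 1.46 for HLA-DRA, a ratio of beta to alpha of 4.35. None of the 31-base stretches of HLA-DRA occur in transcripts of other genes, whereas 24.6% of those of HLA-DRB1 do, 19.5% in HLA-DRB5 alone. With 51-base stretches the share of HLA-DRB1 was 9.33%. Reads that lie wholly within such stretches cannot be assigned to 1 gene, so the mean of HLA-DRB1 is uncertain. HLA-DRB5 itself had a mean of 0.719 and was listed in 2 tables.

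The HLA-DP chains went the other way. HLA-DPA1 (ENSG00000231389, chr6:33064569-33080775, minus strand), the alpha chain, had a mean of 31.1 normalized counts, the second highest. HLA-DPB1 (ENSG00000223865, chr6:33075926-33087201, plus strand), the beta chain, had 3.91. Per kilobase these were 5.42 and 1.40, a ratio of alpha to beta of 3.87, which ranged from 2.47 with the longest transcript to 6.83 with the median transcript. The genes overlap on opposite strands by 96 exon bases, 1.67% of HLA-DPA1 and 3.44% of HLA-DPB1. The pseudogene HLA-DPB2 and other genes share 5.95% of the 31-base stretches of HLA-DPB1, against 0.100% for HLA-DPA1. In both pairs the values of the chains differed under all 3 gene lengths, with beta higher in HLA-DR and alpha higher in HLA-DP. The lengths only rescale the same means, which carry no error. HLA-DRA, HLA-DRB1 and HLA-DPB1 had means below 10, and that of HLA-DRB1 is uncertain. Whether the chains of a dimer differ in level was not tested.

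CD74 (ENSG00000019582, chr5:150401637-150412929, minus strand), the invariant chain and one of the most abundant transcripts of B cells, had a mean of 4.44 normalized counts. This was 1.39 per kilobase, at percentile 12.2. Its longest transcript shares no 31-base stretch with annotated transcripts of other genes, read in the same direction, and no overlapping gene was found over its exons.

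The peptide-loading genes were low as well, with HLA-DMA above the others. HLA-DMA (ENSG00000204257, chr6:32948613-32969094, minus strand), the alpha chain of HLA-DM, had a mean of 14.6 normalized counts and HLA-DMB (ENSG00000242574, chr6:32934629-32941070, minus strand), the beta chain, had 5.57. Per kilobase these were 5.74 and 1.197, a ratio of alpha to beta of 4.80, with 4.71 to 6.88 under the other lengths. BRD2, with a mean of 7621, shares 55 bases or 2.17% of the HLA-DMA exons on the opposite strand, and the part of BRD2 reads in the mean of HLA-DMA was not tested. AL645941.2 on the same strand, not analysed here, shares 6.87% of the exon bases of HLA-DMA and 9.41% of those of HLA-DMB. HLA-DOA (ENSG00000204252, chr6:33004178-33009612, minus strand), the alpha chain of HLA-DO, had 5.44 normalized counts or 1.35 per kilobase. Its partner HLA-DOB had 2.01 normalized counts or 0.998 per kilobase, a ratio of 1.36, the smallest of the 4 pairs by union of exons, though the median transcript length gave 7.30.

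**Figure D2:**
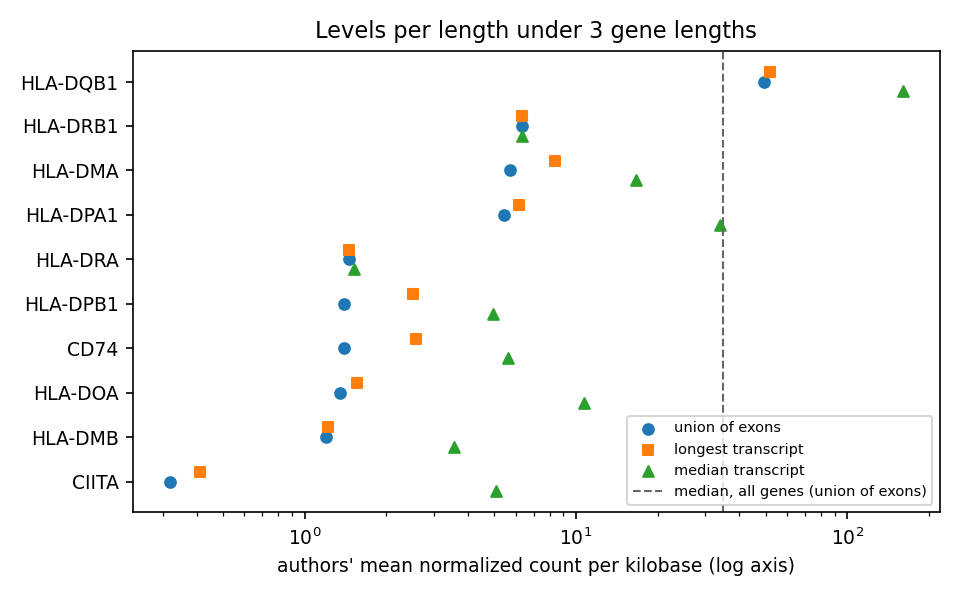
Authors' mean normalized count per kilobase (log axis) of each member, with the length taken as the union of exons (circles), the longest transcript (squares) or the median transcript (triangles). HLA-DQB1 is first under all 3 lengths, and HLA-DMB is ninth under all 3, while the places of the other 8 genes moved with the length. CIITA is last by the union of exons, at 0.319, and HLA-DRA by the median transcript, at 1.53.

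Per kilobase of exon the other 9 members lay between 0.319 and 6.35. HLA-DRB1, HLA-DMA and HLA-DPA1 formed a middle range from 5.42 to 6.35, and HLA-DRA, HLA-DPB1, CD74, HLA-DOA and HLA-DMB lay between 1.197 and 1.46. Since each gene had 1 value with no spread, neighbours within these ranges were not ordered. The split between the ranges depends on the length used. With the longest transcript it remained, HLA-DPA1 at 6.20 being the lowest of the middle range and CD74 at 2.57 the highest below it. With the median transcript it did not, since HLA-DOA at 10.7 lay above HLA-DRB1 at 6.35. The median of the members was 1.43 per kilobase, at percentile 12.4 of all genes.

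The factors that bind class II promoters had a higher median level per kilobase than the members. All 7 were listed, with means from 133 normalized counts for RFXAP to 3472 for NFYC, and their median of 303 per kilobase lay at percentile 81.3. RFX5, the DNA-binding subunit of the RFX complex, had 2275 normalized counts, and RFXANK had 758. RFXAP had a lower mean than HLA-DQB1, and per kilobase RFXAP at 57.7 and NFYB at 70.1 lay near HLA-DQB1 at 49.2. The 7 genes of the list upstream of CIITA had means from 210 for JAK2 to 3989 for JAK1, with a median of 242 per kilobase. The interferon gamma receptor chains IFNGR1 and IFNGR2 had 792 and 1540. Per kilobase all of these genes lay above the 9 members other than HLA-DQB1, and all but JAK2, at 34.0 per kilobase, lay above HLA-DQB1.

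The genes for processing in lysosomes were divided. CTSB, CTSL, CTSD and LGMN, general proteases of the compartment, had means from 1210 to 17060 normalized counts. CTSS, the protease that cuts CD74 in professional antigen-presenting cells, had 12.6, and IFI30, the lysosomal thiol reductase induced by interferon gamma, had 1.91. On the per-length scale these were 2.97 for CTSS and 0.770 for IFI30, within the range of the class II members. Of the other class II genes, 3 of 7 were listed, HLA-DQB2, HLA-DOB and HLA-DRB5, with a median of 0.998 per kilobase. HLA-DQA1, HLA-DQA2, HLA-DRB3 and HLA-DRB4 were not analysed here.

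HLA class I genes, which present peptides from the cytosol to CD8+ T cells and are made by nearly all nucleated cells, gave a contrast. HLA-B and HLA-C had means of 11275 and 8772 normalized counts, and B2M, their common light chain, had 12597. Per kilobase, these 2 class I heavy chains summed to 7194 and the 5 classical class II chains among the members to 63.8, a ratio of 113. HLA-DQB1 alone gave 49.2 of the class II sum, and neither sum holds all chains of its class. HLA-B was 75.1-fold above HLA-DQB1, the highest class II member, on this scale.

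**Figure D3:**
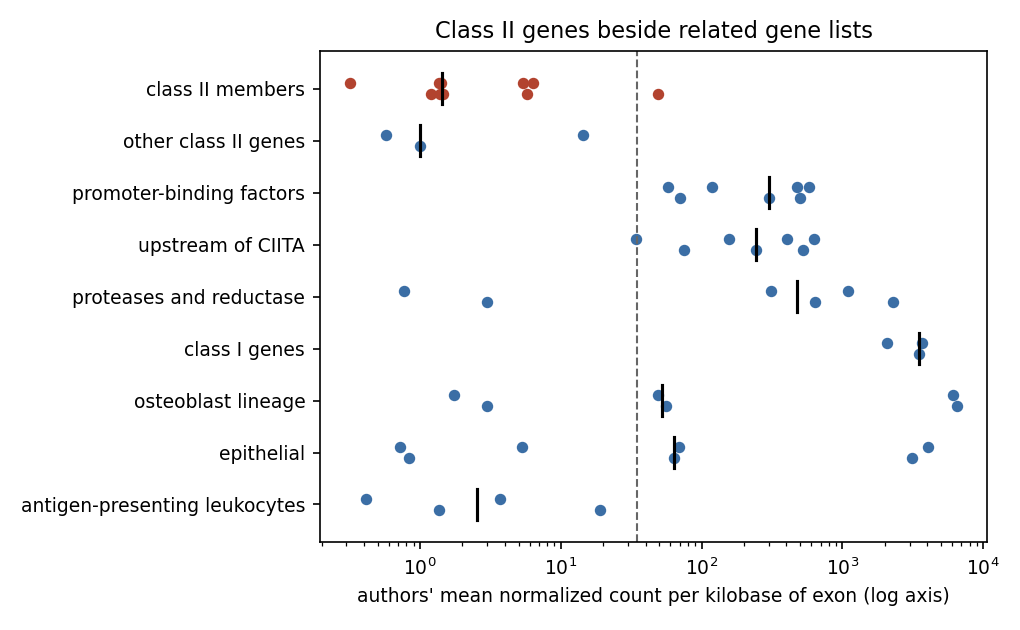
Authors' mean normalized count per kilobase of exon (log axis) for the genes of 9 lists, 1 point per listed gene, with the median of each list as a short bar and the median of all genes (34.7) as a dashed line. The class II members centre on 1.43, the promoter-binding factors on 303, the genes upstream of CIITA on 242 and the class I genes on 3499.

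Markers of cell types were read beside these levels. The siRFXANK samples were labelled as epithelial cells from bone and the others as U2OS only. Of 8 genes of the osteoblast lineage 6 were listed, from 2.08 normalized counts for BGLAP to 64042 for COL1A1, with RUNX2 at 454. All 7 epithelial markers were listed, from 1.67 for KRT19 to 21456 for KRT8. CDH1 and EPCAM, which define epithelial cells, had 32.9 and 161. High means were found for the keratins KRT8 and KRT18 (12960) and for the bone matrix genes COL1A1 and SPARC (29456), but COL1A2 had 33.2, and SP7 and IBSP were not analysed here. Of 8 markers of antigen-presenting leukocytes 4 were listed, CD14, PTPRC, CD79A and ITGAX, with 2.59, 3.81, 5.56 and 134, a sum of 146. Per kilobase, PTPRC (CD45), carried by nearly all leukocytes, reached 0.415 and CD79A, a part of the B cell receptor, 3.70, both within the range of the members other than HLA-DQB1, while ITGAX, an integrin chain of myeloid cells, reached 18.9 and lay above that range. The part of other cells in the class II levels was not tested. The means of the siRNA targets, 31568 for ANKRA2 and 758 for RFXANK, check no knockdown, since they are means over samples.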

How the data were processed

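The authors deposited 6 tables of comparisons. The submitters' processing notes name bcl2fastq 2.20.0.422, Trimmomatic 0.39, FastQC 0.11.9, cutadapt 2.10, SAMtools 1.10, Picard, featureCounts 1.6.5, DESeq2 1.20.0 and the build hg38. The aligner and the annotation are not given in the sources used here. The deposited mean normalized count of each gene, a signal value pooled by the authors, was used. The 5 other value columns of each table hold the authors' own comparisons (log2 fold change, its standard error, a Wald statistic, the p-value and the adjusted p-value) and were not used. No table holds values per sample, so depth per library is unknown and no test was made.

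Members were matched by symbol. Gene lengths, positions and overlaps came from GENCODE 29 on GRCh38, which held 26659 of the 26702 genes (99.8%). Levels were divided by the union of exons. Shared sequence was the share of 31-base stretches of the longest transcript found in transcripts of other genes. Stretches were compared in the direction of the transcript only, so sequence shared with the opposite strand was not counted. The text names all 10 members and gives other lists by their count, range and a few examples. Of the genes of these lists, 2 are not reported here. The members and lists were chosen with earlier results of these data known. Alternatives were other minimum means, other gene sets and lengths, stretches of 51 bases, a window limited to the bases before the start and the longer Y box. The steps for percentiles and levels per kilobase were tested on simulated data. All steps were run with Python 3.11.15, pandas 2.3.3 and numpy 2.4.6.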

Additional observations from a re-analysis of the deposited data

How the results depend on the processing

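The number of members with a mean of at least 10 normalized counts was 3, and it was 10 with a minimum of 1 and 1 with a minimum of 100. The median percentile of the members among all listed genes was 25.7 by the mean. It was 13.7 among the 22738 genes listed in all tables, where HLA-DRA is missing, 11.5 among protein-coding genes, and 12.4 per kilobase of exon. Relative to the order by union of exons, 5 members changed place with the longest transcript and 7 with the median transcript. HLA-DQB1 in the first place and HLA-DMB in the ninth held theirs under all 3 lengths. The number of members with both promoter motifs, at any distance, was 3 with the whole window and with the bases before the start. It was also 3 with the longer Y box, which was added after the windows were seen. No paired analysis was possible because every value used is a mean over samples, and for the same reason leaving out single replicates and fitting a replicate block were not run. No error, depth or counting interval can be given for any level.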
